A study of Mus musculus with 8 samples.

Results

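The Arhgef, Arhgap and Dock genes of the mouse were examined in the fetal epididymal duct. The genes were taken by symbol, as Arhgef, Arhgap or Dock followed by a number and nothing else, and 68 of the 46517 genes in the count table met this: 24 Arhgef, 33 Arhgap and 11 Dock genes, all of them protein coding and spread over 20 chromosomes. Of these, 65 had a mean of at least 0.5 CPM (counts scaled to library size and composition) and were tested, among 16469 genes tested in all. Another 8 genes with a letter after the number were not members, and the pair of those that encode proteins, Arhgap11a and Arhgef10l, are counted with other regulators further on. RNA was sequenced from epididymal ducts, which form from the Wolffian duct, of mouse embryos at E18.5, in 4 libraries labelled Ptk7 conditional knockout (Ptk7 cKO; numbered 1, 2, 4 and 5) and 4 control libraries (numbered 1, 3, 4 and 6). Knockouts carried a floxed Ptk7 allele over the disrupted Xst87 allele, controls carried a floxed over a wild-type allele, and both carried T-Cre and the mT/mG reporter. T-Cre acts in mesoderm, so in the cells it reaches the knockouts lack both Ptk7 copies and the controls keep 1, and the labels do not say whether each library came from 1 embryo.

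Small GTPases such as RhoA, Rac1 and Cdc42 switch between a GTP-bound active and a GDP-bound inactive form. Guanine nucleotide exchange factors (GEFs) load GTP and turn them on: the Arhgef genes encode GEFs of the Dbl family, many of them selective for RhoA, and the Dock genes encode a structurally separate GEF family that acts on Rac and Cdc42. GTPase-activating proteins (GAPs), which the Arhgap genes encode, speed up GTP hydrolysis and turn them off. Through these switches cells control actomyosin tension, protrusions, junctions and matrix assembly, and planar cell polarity signalling, in which Ptk7 acts as a receptor-like protein with an inactive kinase domain, works in part through RhoA and Rac. The title of the series names RAC1 and myosin II activity, which lie downstream of these regulators. Transcript levels do not measure GTPase activity.

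Ptk7 was checked first. It stood at 7.33, 7.59, 12.5 and 194 CPM in the libraries labelled Ptk7 cKO 1, 2, 4 and 5, against 189, 112.5, 313 and 169 CPM in controls 1, 3, 4 and 6. Its log2 fold change was -1.82 (SE 0.95, edgeR adjusted p = 0.655) over all libraries and -4.42 (edgeR adjusted p = 0.00805) without Ptk7 cKO 5. The library labelled Ptk7 cKO 5 thus went against its label. Results for the knockout label are given with that library, and for the called members and some others also without it. Total counts per library ranged from 24807970 to 29590547. Markers of the duct epithelium (12 of 12 tested, among them Epcam, Pax2 and Pax8) were present beside those of mesenchyme (10 of 10) and smooth muscle (10 of 10), and in such mixed tissue fewer cells of a type and less RNA per cell cannot be told apart. Of 8 mesothelium markers, 6 were higher and 0 lower at an unadjusted edgeR p under 0.05 (background 3.5% and 4.87% of all genes tested). Krt19 is in both the mesothelium and the duct epithelium lists. Control 3 stood apart from the other controls in many of the regulators, as described below.

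The regulators spanned a wide range of levels. Compared per kilobase of exon, so that long and short genes can be set side by side, the 65 tested members ran from 0.0932 to 39.7 CPM per kb, with a median of 3.91, against a median of 5.50 over all genes tested. The 10 highest members held 48.3% of the summed level per kb of all 68. These were 3 RhoA-directed GEFs, 6 GAPs and 1 Dock gene. The summed level was 168.8 CPM per kb in Ptk7 cKO and 158.6 in control for the Arhgef genes, 198.6 and 198.1 for the Arhgap genes, and 44.9 and 47.3 for the Dock genes. Without control 3 the control level was 167.2 for the Arhgef genes, 199.3 for the Arhgap genes and 47.1 for the Dock genes, so most of the Arhgef difference rested on that library and the small Arhgap difference changed sign.

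**Figure D1:**
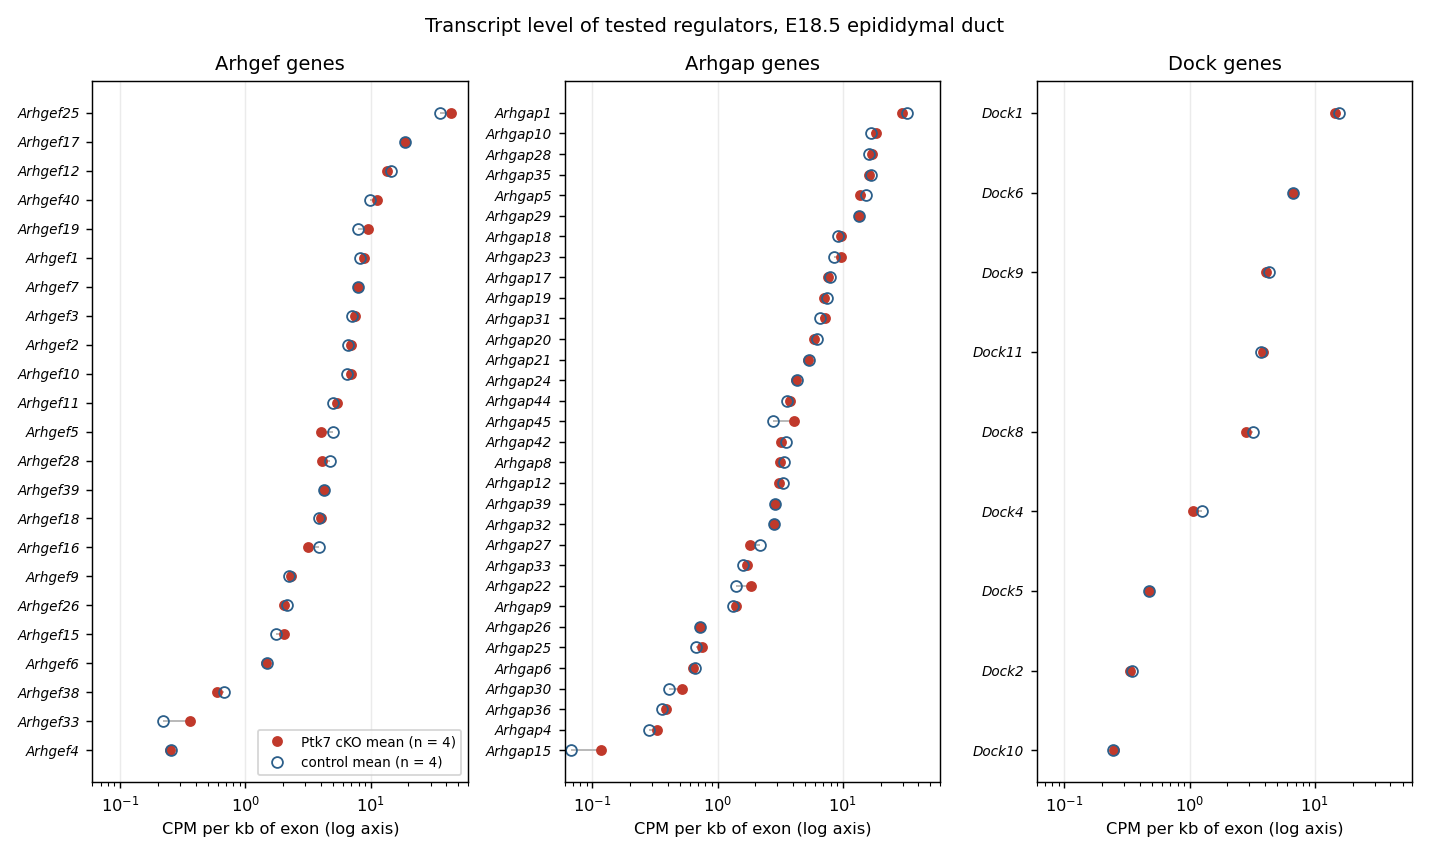
Mean level of the tested regulators in CPM per kilobase of exon (log axis), in Ptk7 cKO (filled red circles) and control libraries (open blue circles), with the means joined by a line and genes ordered by level within each family. Arhgef25 and Arhgap1 stand highest at 39.7 and 31.1 CPM per kb over the 8 libraries, and most pairs of circles overlap.

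Among the GEFs, Arhgef25 had the highest level. It encodes GEFT, also known as p63RhoGEF, a RhoA activator driven by Gq-coupled receptors, and it had 43.6 CPM per kb in Ptk7 cKO and 35.9 in control. Arhgef17, which encodes the RhoA activator TEM4, followed with 18.8 CPM per kb in Ptk7 cKO and 18.8 in control. Arhgef12 encodes LARG, a RhoA activator coupled to G12 and G13 proteins, and had 13.5 CPM per kb in Ptk7 cKO and 14.4 in control. Of the GEFs that act on Rac, Cdc42 or RhoG, Arhgef7, which encodes the focal adhesion protein beta-PIX, was highest, at 7.93 CPM per kb over the 8 libraries. The RhoA-directed group of 14 genes summed to 146.5 CPM per kb in Ptk7 cKO and 135.5 in control, and the Rac, Cdc42 or RhoG group of 6 genes to 17.1 and 17.9. The control sum of the RhoA-directed group was 144.3 without control 3.

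Among the GAPs, Arhgap1, which encodes p50RhoGAP, a GAP for Cdc42 and RhoA, was highest with 29.9 CPM per kb in Ptk7 cKO and 32.3 in control. The pair of p190 RhoGAP genes, Arhgap35 and Arhgap5, whose products restrain RhoA at adhesions, had means over the 8 libraries of 16.5 and 14.5 CPM per kb. Arhgap10 (17.6, a GAP of the GRAF family), Arhgap28 (16.7) and Arhgap29 (13.4, a RhoA GAP also known as PARG1) completed the GAPs among the 10 highest. Dock1, which encodes DOCK180, the Rac activator that works with ELMO scaffolds, led the Dock genes with 14.4 CPM per kb in Ptk7 cKO and 15.5 in control. Dock9, with 4.18 CPM per kb over the 8 libraries, was the highest of the DOCK-D subfamily.

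Setting Ptk7 cKO against control asks whether the transcript of any of these switches differs in the duct when Ptk7 is disrupted. No member passed an edgeR adjusted p of 0.05 (0 of 65; background 0%, or 0 of 16469 genes), and the smallest adjusted p of a member was 0.230. At an unadjusted edgeR p under 0.05 there was 1 member higher (Arhgap45; 1.54%, against a background of 3.5% of all genes tested) and 3 lower (Arhgef5, Arhgef16 and Arhgef28; 4.62%, against 4.87%), together 4 members (6.15%, against 8.37%). These shares are near or below the background, so the counts are no result about the regulators as a group. The groups did not overlap in 2 members, Arhgap45 and Arhgef5, which is 3.08%, against 5.76% of all genes tested; 1 was higher (1.54%, against 2.65%) and 1 lower (1.54%, against 3.11%). DESeq2, run as an alternative, called 1 member, Arhgef5, which was lower (1.54%, against 1.13% of all genes tested in either direction, 0.777% lower and 0.352% higher), and limma voom called 0. Without the library labelled Ptk7 cKO 5, edgeR called 0 members (background 0.00607%) and DESeq2 0 (background 1.14%). In that edgeR fit 3 members were higher at an unadjusted p under 0.05 (Arhgap15, Arhgef19 and Arhgef33; 4.62%, against 3.76%) and 3 lower (Arhgef5, Arhgef28 and Dock4; 4.62%, against 5.03%).

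The fold changes were small. The median log2 fold change of the 65 members was 0.004, with 35 above 0 and 30 below (53.8% above, against 51.4% of all genes tested), beside a median over all genes tested of 0.006. It was within 0.25 on the log2 scale in 55 members and beyond 0.5 in 3, Arhgap15, Arhgef33 and Arhgap45. The shares of all genes tested within 0.25 and beyond 0.5 were not computed, so these counts only describe the members. The median SE of a member's log2 fold change was 0.115, and 0.0935 in the 40 members with a mean of at least 20 CPM.

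**Figure D2:**
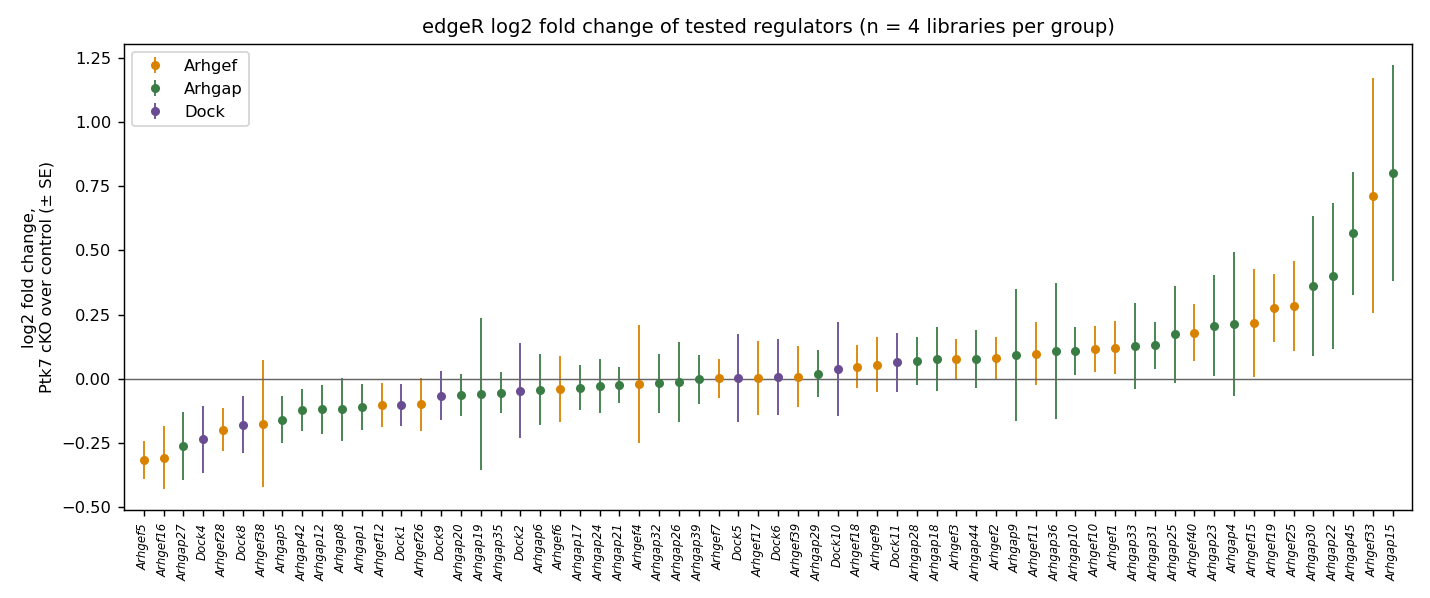
Log2 fold change of the tested regulators, Ptk7 cKO over control, by edgeR over all 8 libraries, ordered from lowest to highest; bars are ± 1 SE (approximate) and colours mark the Arhgef, Arhgap and Dock families. Arhgef5 and Arhgef16 lie lowest near -0.31, and the 3 members above 0.5, Arhgap15, Arhgef33 and Arhgap45, have long bars.

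Of the RhoA-directed GEFs, 0 of 14 passed over all genes. Their median log2 fold change was 0.09, with 11 above 0 and 3 below, and without control 3 it was 0.04, with 9 above and 5 below. Arhgef5 (GRCm38 chromosome 6, 43265582 to 43289320, plus strand) encodes TIM, a RhoA activator of the ephexin family found in epithelia, and 1.62% of its exon bases overlap the antisense gene Gm44731. It had 37.8, 42.1, 38.1 and 41.6 CPM in Ptk7 cKO 1, 2, 4 and 5, against 46.7, 53.9, 50.3 and 47.8 CPM in controls 1, 3, 4 and 6. All 4 Ptk7 cKO libraries lay below all 4 controls, the library labelled Ptk7 cKO 5 included, although Ptk7 itself was high there. Its log2 fold change was -0.32 (SE 0.08, edgeR adjusted p = 0.230), from means of 39.9 ± 2.24 CPM in Ptk7 cKO and 49.7 ± 3.18 in control (SD, n = 4 each). It stayed between -0.34 and -0.27 when each library was left out in turn, with an unadjusted edgeR p of at most 0.00646. These fits share their remaining libraries with the main fit, so they are not separate tests. The DESeq2 adjusted p was 0.0326 with all libraries and 0.0577 without the library labelled Ptk7 cKO 5, so the DESeq2 call was lost there.

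Arhgef28 (chromosome 13, 97898595 to 98206165, minus strand) encodes p190RhoGEF, a RhoA activator that binds focal adhesion kinase. It had 23.9, 26.4, 25.3 and 27.4 CPM in Ptk7 cKO 1, 2, 4 and 5, against 32.5, 28.8, 29.7 and 27.2 CPM in controls 1, 3, 4 and 6. The groups overlapped, since Ptk7 cKO 5 stood above control 6, and the log2 fold change was -0.20 (SE 0.08, edgeR adjusted p = 0.552). Without Ptk7 cKO 5 the groups did not overlap, with a highest Ptk7 cKO value of 26.4 CPM and a lowest control value of 27.2 CPM, and the log2 fold change was -0.23 (SE 0.09, edgeR adjusted p = 0.499).

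Arhgef19 encodes WGEF, a RhoA activator that in Xenopus acts in Wnt planar cell polarity signalling with Dishevelled, the pathway in which Ptk7 works. It had 40.8, 46.6, 38.7 and 36.4 CPM in Ptk7 cKO 1, 2, 4 and 5, against 35.1, 25.04, 38.9 and 35.3 CPM in controls 1, 3, 4 and 6. The groups overlapped, and control 3 was the lowest library. Its log2 fold change was 0.28 (SE 0.13, edgeR adjusted p = 0.627), and without control 3 it was 0.16.

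Arhgef25 (chromosome 10, 127182521 to 127190054, minus strand) had 104.5, 106.3, 107.1 and 98.5 CPM in Ptk7 cKO 1, 2, 4 and 5, against 98.7, 51.9, 87.2 and 104.6 CPM in controls 1, 3, 4 and 6. The 4 Ptk7 cKO libraries lay close together and controls 1 and 6 lay among them, while control 3 stood far below. Its log2 fold change was 0.28 (SE 0.17, edgeR adjusted p = 0.697) with control 3 and 0.11 without it. Arhgef40, which encodes the keratin-binding RhoA activator Solo, had 105.2, 115.3, 114.1 and 127.1 CPM in Ptk7 cKO 1, 2, 4 and 5, against 115.9, 79.7, 106.9 and 105.2 CPM in controls 1, 3, 4 and 6, with control 3 again the lowest.

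In the group of GEFs for Rac, Cdc42 or RhoG, 0 of 6 passed over all genes, with a median log2 fold change of -0.03 that ranged from -0.11 to -0.00 when single libraries were left out. Arhgef16 (chromosome 4, 154278486 to 154301676, minus strand) encodes ephexin-4, a RhoG activator downstream of EphA2. It had 17.7, 20.7, 14.9 and 15.5 CPM in Ptk7 cKO 1, 2, 4 and 5, against 24.3, 20.3, 21.5 and 19.1 CPM in controls 1, 3, 4 and 6. The groups overlapped through Ptk7 cKO 2, which stood above controls 3 and 6, and the log2 fold change was -0.31 (SE 0.12, edgeR adjusted p = 0.517). Arhgef7, in contrast to Arhgef16, had nearly the same mean in each group (log2 fold change 0.00, SE 0.08).

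The promoters of Arhgef5 and Arhgef16, the members with the lowest fold changes, are shown because both genes are known from epithelia and because epithelial promoters often carry the E2 box CACCTG, which repressors of the Zeb and Snail families bind. Each window runs from 250 bases before to 50 after the RefSeq start (GRCm38.p6), written 5′ to 3′ on the gene's strand, with each CACCTG on either strand in capitals; no other motif is marked. The Arhgef5 window (chr6:43265394-43265693, plus strand) holds 1 match and the Arhgef16 window (chr4:154299846-154300145, minus strand) holds 3.
Arhgef5: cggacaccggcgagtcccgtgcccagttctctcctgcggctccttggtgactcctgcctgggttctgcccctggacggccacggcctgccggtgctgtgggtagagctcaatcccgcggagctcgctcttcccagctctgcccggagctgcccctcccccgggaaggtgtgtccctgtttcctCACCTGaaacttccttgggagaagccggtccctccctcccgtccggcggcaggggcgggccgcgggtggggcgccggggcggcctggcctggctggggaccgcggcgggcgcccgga
Arhgef16: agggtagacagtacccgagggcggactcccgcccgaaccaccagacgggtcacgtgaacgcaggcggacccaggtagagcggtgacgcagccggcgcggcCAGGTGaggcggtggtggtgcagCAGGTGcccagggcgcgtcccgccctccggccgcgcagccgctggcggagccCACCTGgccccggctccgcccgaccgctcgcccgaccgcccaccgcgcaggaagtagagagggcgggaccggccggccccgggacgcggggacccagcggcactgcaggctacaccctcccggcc
Of 32851 promoters of the same length, 20.2% hold at least 1 CACCTG and 0.365% hold 3 or more. Among the 79 windows of the 50 members in the promoter table, 21.5% hold at least 1. Both windows are rich in G and C, at 73.3% for Arhgef5 and 77.0% for Arhgef16, and the shares above are not matched for this. The windows of the other epithelium-linked members are not shown. A match is a description of the sequence and not a bound site, and a link to the lower values was not tested.

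**Figure D3:**
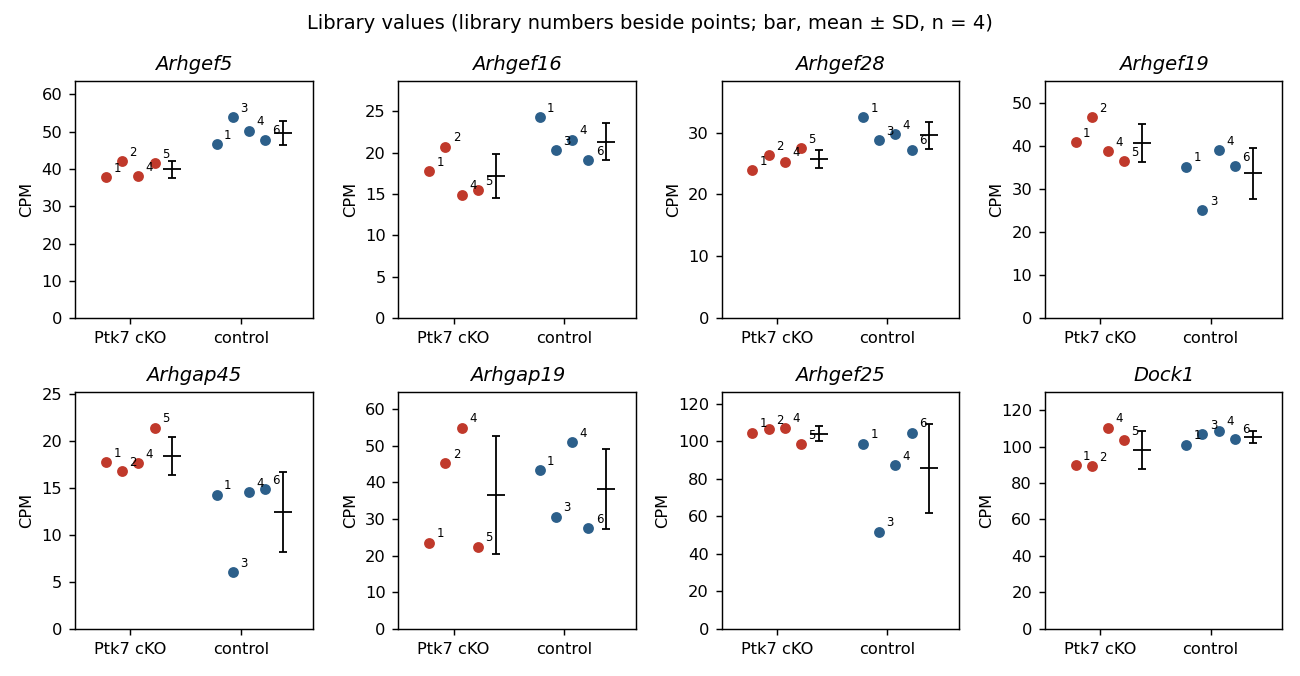
CPM of 8 regulators in each library, Ptk7 cKO (red) left of control (blue), with the library number beside each point and the mean ± SD (n = 4 libraries) as a black bar; each axis starts at 0. In Arhgef5 all 4 Ptk7 cKO libraries lie below the controls, in Arhgef25 and Arhgap45 control 3 lies far below the other controls, and in Arhgap19 both groups split into high and low libraries.

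None of the 10 tested Dock genes passed over all genes, and none was under an unadjusted edgeR p of 0.05. Their median log2 fold change was -0.06, with 4 above 0 and 6 below. Ptk7 cKO 5 had the highest summed Dock level of the 8 libraries, at 388 CPM. Without it the median was -0.14 and all 10 were below 0, so that uniform sign rested on leaving out this library. The share of all genes below 0 in that fit was not computed. In that fit 1 Dock gene (Dock4) was lower at an unadjusted edgeR p under 0.05 (background 5% of all genes lower). Dock1 (chromosome 7, 134670687 to 135173639, plus strand) had 89.7, 89.1, 110.2 and 103.3 CPM in Ptk7 cKO 1, 2, 4 and 5, against 101.1, 106.8, 108.7 and 104.3 CPM in controls 1, 3, 4 and 6. Ptk7 cKO 1 and 2 lay below every control and Ptk7 cKO 4 above every control, whereas the controls were close together (3.13% coefficient of variation). The log2 fold change was -0.10 (SE 0.08). The ELMO scaffolds that pair with it had small differences too: Elmo2 had a log2 fold change of 0.02 (SE 0.06) and Elmo1 of -0.11 (SE 0.12).

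Dock4, a Rac activator of the DOCK-B subfamily, had 8.41, 7.63, 8.13 and 10.1 CPM in Ptk7 cKO 1, 2, 4 and 5, against 10.99, 9.59, 8.60 and 11.3 CPM in controls 1, 3, 4 and 6. The 3 libraries with low Ptk7 lay below every control and the library labelled Ptk7 cKO 5 lay among them. The log2 fold change was -0.24 (SE 0.13) with all libraries and -0.33 (SE 0.13, edgeR adjusted p = 0.521) without Ptk7 cKO 5. Dock8, a Cdc42 activator of leukocytes, had 19.6, 24.99, 22.7 and 20.4 CPM in Ptk7 cKO 1, 2, 4 and 5, against 25.1, 22.1, 28.7 and 23.3 CPM in controls 1, 3, 4 and 6, and the groups overlapped. Dock9, a Cdc42 activator, had a log2 fold change of -0.07 (SE 0.10).

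Of the 32 tested Arhgap genes, 0 passed over all genes, 16 had a log2 fold change above 0 and 16 below, and the median was 0.01. Arhgap45 (chromosome 10, 80016653 to 80031472, plus strand) encodes HMHA1, a RhoGAP of blood cells. It had 17.7, 16.8, 17.6 and 21.4 CPM in Ptk7 cKO 1, 2, 4 and 5, against 14.3, 5.99, 14.5 and 14.9 CPM in controls 1, 3, 4 and 6. All Ptk7 cKO libraries lay above all controls, and control 3 was the lowest of the 8 libraries. Its log2 fold change was 0.57 (SE 0.24, edgeR adjusted p = 0.555) with control 3, and 0.34 (SE 0.10, edgeR adjusted p = 0.448) without it. When Ptk7 cKO 5 was left out instead, the log2 fold change was 0.49 (SE 0.26, edgeR adjusted p = 0.634). The unadjusted edgeR p of Arhgap45 was then 0.092, no longer under 0.05.

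The p190 genes, whose products turn off RhoA, both lay slightly lower in Ptk7 cKO without passing. Arhgap5 had 61.7, 67.5, 82.2 and 73.5 CPM in Ptk7 cKO 1, 2, 4 and 5, against 71.9, 81.4, 82.3 and 82.5 CPM in controls 1, 3, 4 and 6 (-0.16 on the log2 scale, SE 0.09), and Arhgap35 had a log2 fold change of -0.06 (SE 0.08). Without control 3 the log2 fold changes of Arhgap5 and Arhgap35 were -0.15 and -0.02. Arhgap1 had a log2 fold change of -0.11 (SE 0.09). Without control 3, its highest library at 161.7 CPM, it was -0.02 (SE 0.06). Of the GRAF genes, Arhgap42, a RhoA GAP of smooth muscle, had 22.9 ± 1.61 CPM in Ptk7 cKO and 24.9 ± 1.31 in control (SD, n = 4 each; log2 fold change -0.12, SE 0.08), and Arhgap10 had 55.5 ± 5.96 and 51.4 ± 4.58 (0.11, SE 0.09).

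The other GAPs did not pass over all genes either. Arhgap31, which encodes CdGAP, a GAP for Cdc42 and Rac, had 79.8 ± 10.7 CPM in Ptk7 cKO and 72.9 ± 2.92 in control (SD, n = 4 each). Arhgap23 had 54.7, 59.98, 71.8 and 71.9 CPM in Ptk7 cKO 1, 2, 4 and 5, against 61.5, 32.3, 65.9 and 64.2 CPM in controls 1, 3, 4 and 6, so its log2 fold change was 0.21 (SE 0.20) with control 3 and 0.02 without it. Arhgap22, a Rac GAP, had 7.21 ± 1.52 CPM in Ptk7 cKO and 5.47 ± 2.15 in control (SD, n = 4 each), with control 3 lowest at 2.56, and its log2 fold change was 0.40 (SE 0.29) with control 3 and 0.16 without it. In Arhgap22, 36.9% of the exon bases overlap the antisense gene Gm15512, and reads of both cannot be told apart because the strand setting is not stated. Arhgap27, a GAP for Rac and Cdc42, had 11.7 ± 0.93 CPM in Ptk7 cKO and 14.1 ± 2.44 in control (SD, n = 4 each; log2 fold change -0.26, SE 0.13, edgeR adjusted p = 0.639). Without control 3, its lowest control, the log2 fold change was -0.35 (SE 0.12, edgeR adjusted p = 0.476). Arhgap27 has 23.1% of its exon bases overlapping the antisense genes Arhgap27os1 and Arhgap27os2.

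Members known from particular cell types were set beside the markers of those cells. Of 5 epithelium-linked members (Arhgef5, Arhgef16, Arhgef19, Arhgef38 and Arhgap8), 4 had a log2 fold change below 0 and Arhgef19 above 0, with a median of -0.17, which was -0.10 without control 3. Arhgef38 and Arhgap8 had log2 fold changes of -0.17 (SE 0.25) and -0.12 (SE 0.12). Of the 12 duct epithelium markers, all above 0 counts, 7 were lower and 1 higher at an unadjusted edgeR p under 0.05 (background 4.87% and 3.5%). Their median log2 fold change was -0.32, and their summed level was 913 to 1283 CPM in Ptk7 cKO and 1067 to 1240 CPM in control. The part of the epithelial markers in the values of Arhgef5 and Arhgef16 was not tested.

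Of 9 leukocyte-linked members (Arhgap4, Arhgap9, Arhgap15, Arhgap25, Arhgap30, Arhgap45, Dock2, Dock8 and Dock10), 7 had a log2 fold change above 0, with a median of 0.17. The median was 0.05 without control 3 and 0.04 without Ptk7 cKO 5, with 6 above 0 in each case. Their summed level was 58.7, 60.4, 63.3 and 68.5 CPM in Ptk7 cKO 1, 2, 4 and 5, against 59.6, 43.0, 65.8 and 61.1 CPM in controls 1, 3, 4 and 6. Control 3 was lowest, and the other libraries overlapped. The 12 leukocyte markers, none at 0, summed to 246.5 to 322 CPM in Ptk7 cKO and 204.5 to 297 CPM in control, with control 3 lowest there too. Of these 12, 1 was higher and 0 lower at an unadjusted edgeR p under 0.05 (background 3.5% and 4.87%). Arhgap9 had 2.56 CPM in Ptk7 cKO and 2.40 in control, Dock2 3.81 and 3.94, Dock10 4.57 and 4.45, and Arhgap25 3.33 and 2.95. Arhgap30 had 4.48 CPM in Ptk7 cKO and 3.49 in control, and Arhgap4 2.68 and 2.31. The 9 erythroid markers found summed to 1536, 1372, 1364 and 3968 CPM in Ptk7 cKO 1, 2, 4 and 5, against 1015, 1162, 796 and 2270 CPM in controls 1, 3, 4 and 6. Of 8 tested, 2 were higher and 0 lower at an unadjusted edgeR p under 0.05 (background 3.5% and 4.87%). The part of leukocyte and blood content in these values was not tested.

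The 3 muscle-linked members Arhgef25, Arhgap42 and Arhgap6 had log2 fold changes of 0.28, -0.12 and -0.04. Of 10 smooth muscle markers, 5 were lower and 1 higher at an unadjusted edgeR p under 0.05 (background 4.87% and 3.5%). The markers had a summed level of 2916 to 3685 CPM in Ptk7 cKO and 3678 to 4404 CPM in control. Arhgef15, an exchange factor of endothelium, had 10.3, 9.65, 15.8 and 17.3 CPM in Ptk7 cKO 1, 2, 4 and 5, against 11.7, 8.32, 12.2 and 13.4 CPM in controls 1, 3, 4 and 6. The 10 endothelial markers, none at 0, summed to 528, 495.5, 633 and 626 CPM in the same Ptk7 cKO libraries and to 563, 504, 569 and 545 CPM in those controls. Both were lower in Ptk7 cKO 1 and 2 than in Ptk7 cKO 4 and 5.

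The summed level of the regulators varied more within the groups than between them. All 68 members summed to 2539, 2632, 2954 and 2917 CPM in Ptk7 cKO 1, 2, 4 and 5, against 2803, 2603, 2869 and 2717 CPM in controls 1, 3, 4 and 6, with means of 2760 ± 206 and 2748 ± 115 CPM (SD, n = 4 each). Ptk7 cKO 1 was the lowest of the 8 libraries in 17 of 65 members (26.2%, against 11.4% of all genes tested) and the highest in 0. Ptk7 cKO 2 was the lowest in 16 (24.6%, against 10.1%). Ptk7 cKO 4 was the highest in 17 (26.2%, against 15.9%) and Ptk7 cKO 5 in 19 (29.2%, against 13.0%). The knockout label thus held the lowest and the highest summed level, but control 3 was the lowest library in more members (22 of 65, or 33.8%, against 26.6%). Within the knockout label, the split between libraries 1 and 2 and libraries 4 and 5 did not follow Ptk7, which was low in 1, 2 and 4. Members are expressed in the same libraries and share their scaling, so these counts are a description.

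**Figure D4:**
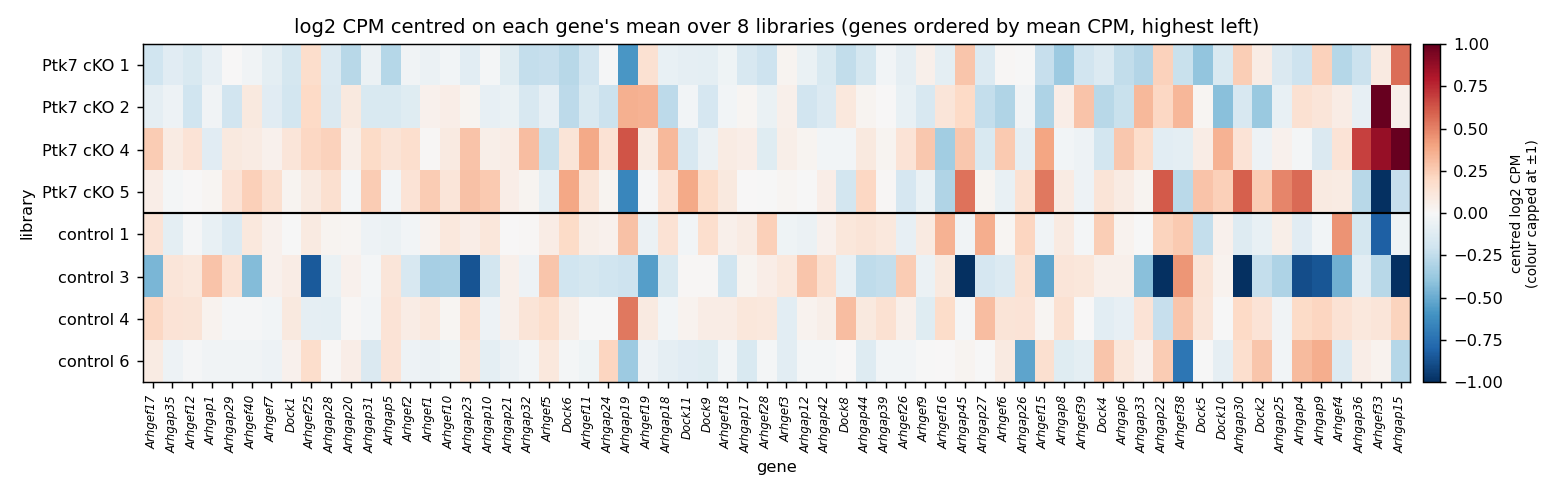
Log2 CPM of the tested regulators (columns, highest mean CPM at the left) in each library (rows, Ptk7 cKO above control), centred on the gene's mean over the 8 libraries; red is above and blue below the mean, with colour capped at 1. Ptk7 cKO 1 and 2 are mostly pale blue, Ptk7 cKO 4 and 5 mostly pale red, and control 3 holds the darkest blue cells of the controls.

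Control 3 was the lowest of the 8 libraries in 22 of 65 members (33.8%, against 26.6% of all genes tested) and the highest in 9 (13.8%, against 24.4%). It lay below all other controls in 31 members and above them in 12, where over all genes tested it lay below in 35.3% and above in 34.7%. Its members tended to be lower the richer their transcripts were in G and C: across the 65 members the deviation of control 3 from the other controls had r = -0.424 with the GC content of the longest transcript, and across 16412 genes r = -0.405. In the other 7 libraries this r over the 65 members was between -0.325 and 0.314. These correlations run across genes, which share the library and its scaling. The 8 members lowest in control 3 included 3 of high GC content, namely Arhgap22, Arhgap45 and Arhgap23, at 58.7 to 61.3% GC, with deviations of -1.29, -1.27 and -0.98 log2 CPM from the mean of the other controls. They also included Arhgap30 (-1.13 at 51.8% GC), Arhgap9 (-1.04 at 55.1%), Arhgap4 (-1.02 at 55.2%) and Arhgef25 (-0.90 at 55.7%). Arhgap15 lay lowest at -1.36 with 35.2% GC, on few counts, and its log2 fold change was 0.80 (SE 0.42) with control 3 and 0.53 without it. Of these 8, 5 (Arhgap4, Arhgap9, Arhgap15, Arhgap30 and Arhgap45) are leukocyte-linked members. The summed level of that list, which these 5 enter, was lowest in control 3, as was that of the leukocyte markers. In Arhgap4, 36.1% of the exon bases overlap other genes (L1cam, Naa10 and Avpr2). The parts of GC content and of leukocyte content in the control 3 values were not tested.

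**Figure D5:**
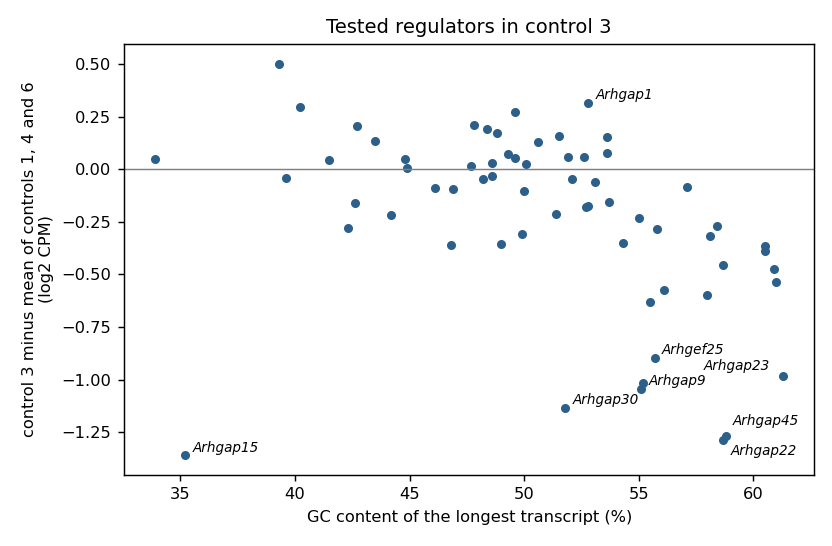
Deviation of control 3 from the mean of controls 1, 4 and 6 (log2 CPM, vertical) against the GC content of the longest annotated transcript (percent, horizontal) for the tested regulators, each point being 1 gene. Genes above 55% GC lie mostly below 0, and Arhgap15, at 35.2% GC and few counts, lies lowest at -1.36.

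Arhgap19 had the largest SE (0.30) of the 40 members with a mean of at least 20 CPM. It encodes a RhoA GAP that acts in cell division of lymphocytes. It stood at 23.6, 45.3, 54.8 and 22.5 CPM in Ptk7 cKO 1, 2, 4 and 5, against 43.4, 30.6, 51.0 and 27.5 CPM in controls 1, 3, 4 and 6. Both groups held high libraries (Ptk7 cKO 2 and 4, controls 1 and 4) and low libraries (Ptk7 cKO 1 and 5, controls 3 and 6), so the split crossed the label, and its log2 fold change was -0.06 (SE 0.30). The 10 proliferation markers did not share the split: they summed to 1182, 1234, 1295 and 1346 CPM in Ptk7 cKO 1, 2, 4 and 5, against 1257, 1550, 1333 and 1250 CPM in controls 1, 3, 4 and 6. Arhgef39, the other proliferation-linked member, had 9.83, 13.7, 10.9 and 10.9 CPM in those Ptk7 cKO libraries and 11.1, 12.2, 11.3 and 10.5 CPM in those controls.

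The Arhgap19 promoter is shown because the gene is linked to proliferation, and promoters of cell cycle genes typically combine CCAAT boxes with a cell cycle homology region. In the window from 250 bases before to 50 after the start (RefSeq, GRCm38.p6, chr19:41802035-41802334, minus strand, 5′ to 3′), each CCAAT and each TTTGAA on either strand is in capitals, and none of these matches overlap.
Arhgap19: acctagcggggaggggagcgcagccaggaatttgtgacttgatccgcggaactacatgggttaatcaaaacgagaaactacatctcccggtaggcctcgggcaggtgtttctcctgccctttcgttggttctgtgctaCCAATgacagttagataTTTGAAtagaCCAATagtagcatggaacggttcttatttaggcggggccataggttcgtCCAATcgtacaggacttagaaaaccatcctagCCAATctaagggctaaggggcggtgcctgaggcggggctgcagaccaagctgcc
It holds 4 CCAAT boxes and 1 TTTGAA. Of 32851 promoters of this length, 37.4% hold at least 1 CCAAT and 3.37% hold 3 or more, and 17.9% hold at least 1 TTTGAA. Among the 79 windows of the members, 22.8% hold at least 1 CCAAT and 7.59% hold at least 1 TTTGAA.

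The regulators varied among the controls about as much as all genes tested. The median coefficient of variation of a member over the 4 controls was 10.5%, against 11.9% over all genes tested. It was under 15% in 45 of 65 members, and the share of all genes under 15% was not computed. Arhgap20 (1.78%), Dock1 (3.13%) and Arhgef7 (3.42%) varied least.

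The lowest members carry little information. Arhgap15, a Rac GAP of leukocytes, had 29, 20, 44 and 15 counts in Ptk7 cKO 1, 2, 4 and 5, against 18, 7, 25 and 16 counts in controls 1, 3, 4 and 6. Arhgef33 had 23, 50, 41 and 8 counts in those Ptk7 cKO libraries and 11, 20, 26 and 23 in those controls, and its log2 fold change was 0.71 (SE 0.46) with and 1.02 (SE 0.35, edgeR adjusted p = 0.446) without Ptk7 cKO 5. Arhgap36, with a mean of 1.29 CPM, was the third member just above the limit of 0.5 CPM. Just below it were Dock3 (0.190 CPM) and Arhgef37 (0.183 CPM). Arhgap40 had 3 counts in control 6 and 0 in the other 7 libraries, where a count of 0 allows up to 3 counts, or 0.0998 to 0.123 CPM per library, for counting error only.

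The other genes of the pathway showed as few calls. Of 41 tested GEFs of the Dbl family with other names, 0 passed over all genes in edgeR, and 3 were higher and 2 lower at an unadjusted p under 0.05 (background 3.5% and 4.87%). Rasgrf2, an exchange factor for Ras and Rac, had 0.959, 0.878, 1.183 and 1.47 CPM in Ptk7 cKO 1, 2, 4 and 5, against 2.65, 3.40, 2.96 and 2.02 CPM in controls 1, 3, 4 and 6. Its groups did not overlap, and it had a log2 fold change of -1.30 (SE 0.24, edgeR adjusted p = 0.161, DESeq2 adjusted p = 0.0012). Prex2, a Rac activator, had 25.4 ± 0.91 CPM in Ptk7 cKO and 31.3 ± 1.69 in control (SD, n = 4 each), with an edgeR adjusted p of 0.237 and a DESeq2 adjusted p of 0.0388 (0.158 without Ptk7 cKO 5). DESeq2 called 2 of the 41, these 2 (background 1.13%). Without Ptk7 cKO 5 DESeq2 called Rasgrf2 and Fgd3, a Cdc42 exchange factor (adjusted p = 0.0449, log2 fold change -0.82; background 1.14%).

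Of 28 other RhoGAPs, 0 passed over all genes in edgeR, and 1 was higher and 1 lower at an unadjusted p under 0.05 (background 3.5% and 4.87%). Fam13a, a RhoGAP-domain gene, had 15.2 ± 1.80 CPM in Ptk7 cKO and 20.4 ± 1.51 in control (SD, n = 4 each; log2 fold change -0.43, SE 0.11, edgeR adjusted p = 0.238, DESeq2 adjusted p = 0.0348). Without Ptk7 cKO 5 the Fam13a log2 fold change was -0.50, with a DESeq2 adjusted p of 0.00724. Tagap, a RhoGAP of T cells, had 12.8 ± 1.30 and 10.6 ± 0.70 CPM (log2 fold change 0.28, SE 0.11). Of 20 tested GTPases of the RhoA, Rac and Cdc42 family, 3 were higher and 0 lower at an unadjusted edgeR p under 0.05 (background 3.5% and 4.87%), and 0 passed over all genes. In this family 17 had a log2 fold change above 0 (background 51.4%) and the median was 0.12, and without control 3 these were 20 and 0.09. Rhou, an atypical GTPase induced by Wnt, had 66.1 ± 8.06 CPM in Ptk7 cKO and 53.1 ± 5.98 in control (SD, n = 4 each; edgeR adjusted p = 0.420), and Rhoc had 176 ± 12.8 and 145.5 ± 18.8 CPM (edgeR adjusted p = 0.489). The main substrates of the regulators had log2 fold changes of 0.04 for Rac1, -0.01 for Rhoa and -0.02 for Cdc42 (SE 0.08 each). Of the 6 RhoGDI and ELMO genes, whose products hold these GTPases in the cytosol or partner Dock proteins, none was under an unadjusted edgeR p of 0.05, with Arhgdia at 0.11 (SE 0.08) and Arhgdig at 0.31 (SE 0.19).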

How the data were processed

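The authors deposited raw counts per gene, 1 column per library, with each gene's summed exon length; STAR, featureCounts and GRCm38 are named per the submitters' processing notes. Their versions, the annotation and the strand setting are not stated there. Total RNA of E18.5 ducts was sequenced from 4 Ptk7 cKO and 4 control libraries, per the labels' protocols. Symbols were matched by Ensembl identifier (46005 of 46517 genes); 38860 genes had the same position as in GENCODE M21. In 21 of the 68 members some exon bases overlap a gene on the opposite strand; with overlaps on either strand counted, over 10% of exon bases overlap another gene in 7.

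The main test was the quasi-likelihood F test of edgeR 4.0.16 in R 4.3.3, with TMM factors, filterByExpr, the 8 libraries split by label, and Benjamini-Hochberg adjustment over 16469 genes at 0.05. The code was tested on simulated data. CPM is TMM-scaled. The SE is the size of the log2 fold change divided by the square root of F, an approximation. GC content came from the longest M21 transcript, promoters from RefSeq (50 of 68 members matched). edgeR put the common variation between libraries at 15.2%, which exceeds the counting error of all but low genes. No library was a repeat of another: chi-square over degrees of freedom was 13.7 to 81.7 in the 28 pairs. Intervals and floors cover counting error only. P-values measure the spread between libraries, which may be partly technical. No pairing of the numbers in the titles is stated.

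Named genes were Ptk7, the 12 members with the smallest p, the 10 highest per kb, the highest and the smallest-p member of each of 16 role lists (60 members), 3 members on each side of the 0.5 CPM limit, all tested cell-linked members, and 2 genes of each pathway list, 57 in all. Others named, among them Arhgap20, Elmo1, Elmo2, Rac1, Rhoa and Cdc42, were picked with their values in view. The members and lists were chosen with earlier results of these data known. Alternatives were RLE factors, other filters, robust moderation, DESeq2 1.42.0, limma 3.58.1 voom with quality weights, a replicate block, and leaving out each library; DESeq2 without the library labelled Ptk7 cKO 5 was added after seeing the data. Values of 1 Dock gene are not reported here and it is left out of the plots, though group counts and sums include it. Figures used matplotlib 3.10.9.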

Additional observations from a re-analysis of the deposited data

Results flagged for a closer look

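In 113 groups of 4 libraries (57 named genes), 7 libraries stood far from the other 3 of their group, where chance flags about 1 in 20 groups. Ptk7 was at 194 CPM in the library labelled Ptk7 cKO 5, against 7.33 to 12.5 CPM in the other Ptk7 cKO libraries. Control 3 had 32.3 CPM of Arhgap23, against 61.5 to 65.9 CPM in the other controls, and 5.99 CPM of Arhgap45, against 14.3 to 14.9 CPM. Control 1 had 71.9 CPM of Arhgap5, against 81.4 to 82.5 CPM in the other controls. Ptk7 cKO 4 had 2.06 CPM of Arhgap36, against 1.022 to 1.183 CPM in the other Ptk7 cKO libraries, and 14.7 CPM of Tagap, against 11.98 to 12.36 CPM. Control 6 had 0.110 CPM of Arhgap40, from 3 counts, and the other controls had 0.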

How the results depend on the processing

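No member passed the adjusted threshold in edgeR under any alternative or in voom, and DESeq2 called 1 member with all libraries and 0 when Ptk7 cKO 5 was left out, an alternative added after seeing the data. The count of members higher at an unadjusted p under 0.05 was 1 (3.5% of all genes), against 2 without a filter on low counts (3.1%), 2 with voom (4.24%), 0 under the replicate block (3.54%) and 3 with DESeq2 without Ptk7 cKO 5 (3.75%); leaving out single libraries gave 0 to 3 (2.72 to 4.14%). The count lower was 3 (4.87%), against 5 under the replicate block (5.52%); leaving out single libraries gave 1 to 4 (3.84 to 5.33%). The percentages in brackets are shares of all genes tested in the same fit. The median log2 fold change of the members moved by less than the spread of the libraries (SD 0.086) in every alternative. Leaving out a single library can hardly move it further, so this says little. Its sign did change, from -0.030 without Ptk7 cKO 4 to 0.069 without Ptk7 cKO 1. Ptk7 had a log2 fold change of -1.82, -4.67 under the replicate block (adjusted p = 7.55e-06), -4.42 with DESeq2 without Ptk7 cKO 5, and -4.42 to -1.46 when single libraries were left out. The block uses the 4 libraries numbered 1 and 4. Their numbers are not shown to pair the samples (r of deviations -0.092 and 0.023), and the block leaves out Ptk7 cKO 5.

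Of 53 named genes other than Ptk7 with a fit, 20 changed the sign of the log2 fold change at least once, and the cause was not tested. Under the replicate block these were Arhgef40 (-0.023), Arhgef17 (-0.143), Arhgap10 (-0.013), Arhgef7 (-0.030), Arhgap44 (-0.150), Arhgap24 (0.050), Arhgap23 (-0.020), Arhgap4 (-0.156), Arhgap9 (-0.056), Arhgap25 (-0.061), Arhgap6 (0.045) and Arhgef39 (-0.113). With voom they were Arhgef17 (-0.147), Arhgap28 (-0.002), Arhgef7 (-0.028), Arhgap44 (-0.018), Arhgap36 (-0.017), Dock10 (-0.094) and Arhgef15 (-0.028). With DESeq2 without Ptk7 cKO 5 they were Arhgef17 (-0.009), Arhgap29 (-0.020), Arhgef7 (-0.051), Dock10 (-0.035) and Arhgap19 (0.117). Leaving out single libraries gave Arhgap17 -0.088 to 0.012, Arhgap19 -0.324 to 0.114, Arhgap24 -0.093 to 0.044, Arhgap28 -0.001 to 0.126, Arhgap29 -0.022 to 0.084, Arhgap36 -0.179 to 0.216, Arhgap6 -0.152 to 0.030, Arhgap9 -0.118 to 0.244, Arhgef17 -0.124 to 0.073, Arhgef39 -0.098 to 0.072, Arhgef7 -0.054 to 0.040, Dock10 -0.085 to 0.164 and Dock2 -0.145 to 0.060. Low counts limit Arhgap15, Arhgef33 and Arhgap36.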
